A study of Caenorhabditis elegans with 2 samples.

Results

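The genes for the initiation, elongation and release factors of protein synthesis were examined for binding of NHR-76 in C. elegans embryos. They are the 42 protein-coding genes, of 19985 in the Ensembl annotation, whose symbol starts with eif-, iff-, ife-, ifg-, ifet-, eef- or erfa-. No measured value entered that choice, although the group was picked with earlier results of these data known. Binding was measured by chromatin immunoprecipitation and sequencing (ChIP-seq) in whole embryos of mixed stage and pooled sex, in 2 biological replicates of 1 group. The strain, OP203, carries the unc-119(ed3) mutation and the integrated transgene wgIs203, from which the nuclear hormone receptor NHR-76 is made with a C-terminal GFP-FLAG tag. The labels give the antibody by its target, nhr-76, and do not name the promoter of the transgene. Both replicates share this genotype and stage, no second genotype or treatment was analysed here, and the embryo's cell types were not separated.

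The pooled list of both replicates held 30000 candidate peaks, made as peaks together with background, and the thresholded list of final peaks held 140. The list of replicate 1 was shorter, with 7516 peaks, than that of replicate 2, with 30000. Each peak carries a signal value given by the authors, whose scale is not stated, and a rank by that value within its own list, where rank 1 is the strongest. Signals lay between 2.82 and 442 in the pooled list, between 2.00 and 91.7 in replicate 1 and between 2.36 and 360 in replicate 2. Ranks and signals are therefore compared within a list, except where the last section sets ranks of different lists against each other. A gene was given every peak whose summit lay within 1000 bp of the 5′ end of any of its transcripts, and was described by the strongest. The number of reads behind these values is unknown.

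Translation factors bring the ribosome to a messenger RNA and drive it along. Initiation factors of the eIF4 group bind the cap, eIF2 delivers the initiator tRNA under the exchange factor eIF2B, and eIF3 holds the small subunit on the message. The eEF1 and eEF2 factors then deliver aminoacyl-tRNAs and move the ribosome, eIF5A helps it across difficult peptide bonds, and the release factors end synthesis at the stop codon. These proteins are needed in nearly every cell, and the worm has several of them as germline and somatic copies. NHR-76 itself has been studied mainly as a regulator of intestinal fat.

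The candidates at 4 of the genes with the highest values are shown first. Each sequence covers 100 bp on each side of the summit, read 5′ to 3′ on the gene's strand from the RefSeq sequence of WBcel235, the assembly also called ce11. The windows are chrII:8561368-8561513 on the minus strand for iff-2, chrIII:4475565-4475765 on the minus strand for ifet-1, chrIII:9747450-9747650 on the minus strand for iff-1 and chrX:7823105-7823305 on the plus strand for eef-1A.2. The iff-2 window ends at the annotated 5′ end, which leaves out 55 bp of its 5′ UTR. Capitals mark matches to 8 short motifs named further on, so that TCTCTC is GAGAGA and CTGAAA is TTTCAG on the other strand.
iff-2: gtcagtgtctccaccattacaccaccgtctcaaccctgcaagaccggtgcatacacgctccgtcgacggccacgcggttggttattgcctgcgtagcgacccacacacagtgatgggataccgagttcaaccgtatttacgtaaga
ifet-1: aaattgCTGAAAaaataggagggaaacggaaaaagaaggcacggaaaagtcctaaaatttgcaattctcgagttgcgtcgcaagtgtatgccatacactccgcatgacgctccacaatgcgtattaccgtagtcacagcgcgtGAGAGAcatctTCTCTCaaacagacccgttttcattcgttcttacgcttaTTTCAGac
iff-1: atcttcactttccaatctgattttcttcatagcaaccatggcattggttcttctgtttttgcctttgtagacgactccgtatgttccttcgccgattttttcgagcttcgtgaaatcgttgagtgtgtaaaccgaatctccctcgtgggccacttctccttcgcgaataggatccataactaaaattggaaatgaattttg
eef-1A.2: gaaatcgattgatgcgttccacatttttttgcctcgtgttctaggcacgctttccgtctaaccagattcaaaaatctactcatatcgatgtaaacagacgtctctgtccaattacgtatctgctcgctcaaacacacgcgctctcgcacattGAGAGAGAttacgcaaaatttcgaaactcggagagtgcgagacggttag
The iff-1 window lies mostly in the first coding exon of the neighbouring gene cdk-1. The summits of ifet-1 and eef-1A.2 lie outside protein-coding genes, and that of ifet-1 lies on the ncRNA gene F56F3.10.

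Translation factor genes had a strong candidate nearby in a larger share than all protein-coding genes did. A pooled candidate lay within 1000 bp of 33 of the 42 (78.6%), against 54.2% of all protein-coding genes. That excess was shared by related families. The share was 89.7% for cytosolic ribosomal protein genes, 75.0% for aminoacyl-tRNA synthetase genes and 78.6% for mitochondrial ribosomal protein genes. A candidate among the 1000 strongest of the pooled list lay at 8 of the 42 (19.0%), against 3.54% of all genes, and 1 among the 3000 strongest at 15 (35.7%), against 8.89%. The 8 genes in the top 1000 were erfa-3, iff-2, ifet-1, iff-1, eef-1A.2, eif-3.E, eif-2Bgamma and eif-3.I, with ranks 31, 90, 165, 271, 286, 437, 504 and 672 and signals of 38.9 down to 11.2. The next gene, eef-2, ranked 1130 with a signal of 9.82. Final peaks lay at 2 of the 42, erfa-3 and iff-2 (4.76%), against 0.681% of all genes. A q-value below 0.05 was given to the best candidate of 15 of the 42 (35.7%), against 9.82% of all genes, and all 15 were also in the top 3000.

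The other 18 genes with a candidate ranked 5010 or below, down to 28278 for eef-1G. The median best rank was 5565 over the 33 genes and 11679 over the 10838 protein-coding genes with a candidate, and the median signal was 6.34 and 4.84. These shares and medians are descriptions of the peak lists, with no test. The genes had a median of 1 annotated 5′ end, as did all genes, and a mean of 1.71 against 1.49. Counting 1 transcript per gene gave 8 of 42 in the top 1000, against 3.15% of all genes.

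**Figure D1:**
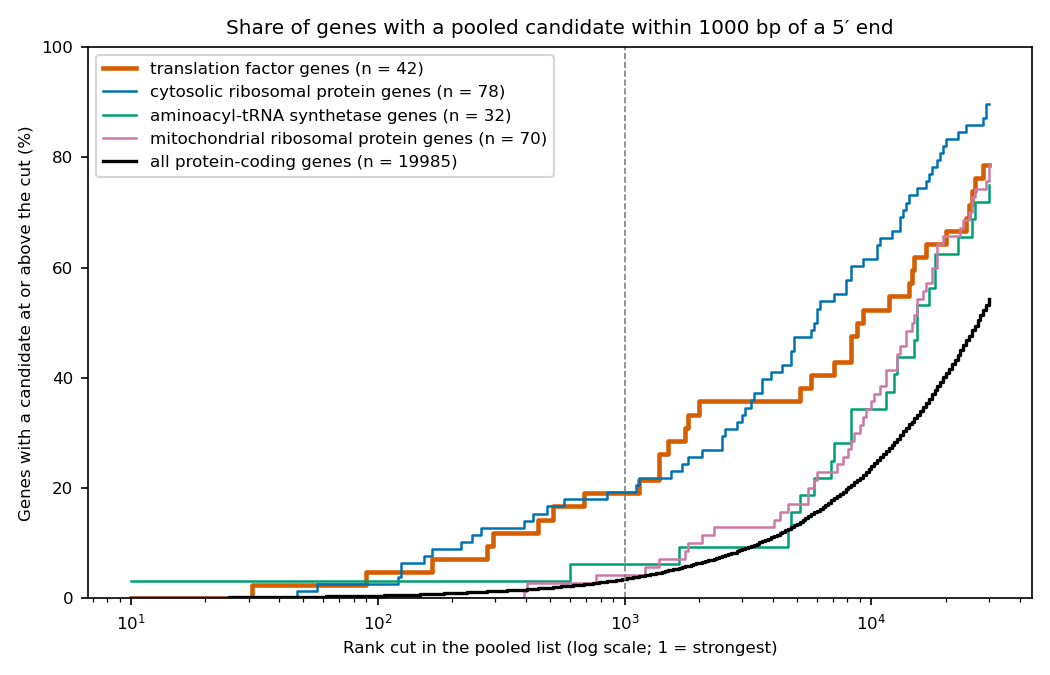
Share of genes (%, vertical axis) with a pooled candidate within 1000 bp of a 5′ end at or above each rank (horizontal axis, log scale), for the 42 translation factor genes, 3 other gene families and all 19985 protein-coding genes. At rank 1000, marked by the dashed line, the share was 19.0% for translation factor genes, 19.2% for cytosolic ribosomal protein genes and 3.54% for all genes.

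The release factors gave the strongest peak of the whole group. erfa-3 (WBGene00010405, chromosome V, 11110100 to 11113091, minus strand) encodes eRF3, the GTPase that works with eRF1 when a stop codon is reached. Its final peak had a signal of 38.9 in the pooled list, rank 31, with the summit 290 bp upstream of the 5′ end. Replicate 1 listed it with a signal of 8.54 at rank 73 and replicate 2 with 33.1 at rank 28, and the summits lay 31 bp and 0 bp from the pooled summit. It was 1 of 2 translation factor genes, with ifet-1, that lay in the top 1000 of both replicates (4.76%, against 0.886% of all genes). The summit lay between erfa-3 and math-33, a ubiquitin protease gene on the opposite strand whose 5′ end was 526 bp away, so the peak lay in the interval between 2 divergent starts. erfa-1, which encodes eRF1, the protein that reads the stop codon, had a pooled candidate of signal 4.13 at rank 16433. That summit was 601 bp upstream of erfa-1 and 31 bp from the 5′ end of its divergent neighbour gad-1.

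The 2 eIF5A genes were both in the pooled top 1000, against 3.54% of all genes. eIF5A is known for carrying the modified amino acid hypusine. In the worm iff-1 is known as the germline copy and iff-2 as the somatic copy. At iff-2 (WBGene00002065, chromosome II, 8559375 to 8561367, minus strand) the final peak had a signal of 23.6 at rank 90, with the summit 46 bp upstream. Replicate 2 listed it with 22.2 at rank 61, and replicate 1 listed no peak within 1000 bp. At iff-1 (WBGene00002064, chromosome III, 9745862 to 9747193, minus strand) the candidate had a signal of 14.9 at rank 271, 357 bp upstream. Replicate 1 listed it with 5.91 at rank 241 and replicate 2 with 7.16 at rank 2579. The iff-1 summit lay 78 bp inside cdk-1, the gene of the cyclin-dependent kinase of mitosis, which starts on the opposite strand.

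Among the elongation factors, all 6 genes had a pooled candidate, against 54.2% of all genes. In the top 1000 was 1 of the 6 (against 3.54% of all genes), and in the top 3000 were 4 (against 8.89%). The eEF1A proteins carry aminoacyl-tRNAs to the ribosome, and the worm has eef-1A.1, whose promoter is widely used to express transgenes in most tissues, and eef-1A.2. At eef-1A.2 (WBGene00001169, chromosome X, 7823654 to 7825769, plus strand) the pooled signal was 14.7 at rank 286, 449 bp upstream. Replicate 2 listed the same summit with 15.9 at rank 149, and replicate 1 listed no summit within 100 bp but a peak of 3.20 at rank 2447, 246 bp upstream. At eef-1A.1 (WBGene00001168, chromosome III, 6970026 to 6971712, minus strand) the pooled signal was 8.75 at rank 1768, 390 bp upstream. Replicate 1 listed it with 6.26 at rank 195, while the best peak of replicate 2 had 3.22 at rank 20005 and a summit 643 bp upstream. The eef-1A.1 summit was nearer to rfc-4, a subunit gene of the clamp loader of DNA replication, at 151 bp on the opposite strand.

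The remaining elongation factors had their summits close to the 5′ end or ranked low. eef-2 encodes the factor that moves the ribosome by a codon. Its candidate had a signal of 9.82 at rank 1130, 28 bp upstream, and replicate 2 alone listed it, with 8.63 at rank 1226. eef-1B.1, a gene of the exchange factor of eEF1A, had 8.78 at rank 1737, 36 bp upstream. Both replicates listed that summit within 100 bp, replicate 1 with 3.41 at rank 2031 and replicate 2 with 5.34 at rank 6759. The other exchange factor genes, eef-1B.2 and eef-1G, ranked 23789 and 28278.

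Of the cap-binding group, the regulator ifet-1 had the strongest candidate and the cap-binding proteins themselves ranked lower. ifet-1 (WBGene00004132, chromosome III, 4471411 to 4475150, minus strand) encodes the worm relative of 4E-T, an eIF4E-binding protein that represses translation in the germline. Its best pooled candidate had a signal of 18.6 at rank 165, 515 bp upstream, and a further candidate 67 bp inside the gene had 13.3 at rank 371. Replicate 1 listed the upstream summit with 10.6 at rank 45. Replicate 2 listed no summit within 100 bp of it, and its own peaks were 14.1 at rank 197, 121 bp inside the gene, and 11.3 at rank 408, 704 bp upstream. The upstream summit was nearer to rps-1, a ribosomal protein gene on the opposite strand, at 253 bp, and lay on the ncRNA gene F56F3.10. ifg-1, the gene of the scaffold protein eIF4G, had 9.32 at rank 1376 in its own coding sequence, 922 bp downstream of a 5′ end, and replicate 2 alone listed it, with 6.61 at rank 3446.

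Of the 5 eIF4E genes, ife-1 to ife-5, 0 had a candidate in the top 1000, against 3.54% of all genes. In the top 3000 there was 1 of the 5, against 8.89% of all genes. ife-2 was the highest, with a pooled signal of 9.17 at rank 1460, 22 bp upstream, and in replicate 2 with 8.99 at rank 1045. ife-4 had 5.44 at rank 8690 and ife-1 had 5.35 at rank 9077. The ife-1 summit lay in its own coding sequence, 436 bp from the start of acaa-2. ife-3 and ife-5 had no pooled candidate within 1000 bp. Replicate 2 listed a peak at all 5 genes, with ranks 5305 for ife-1, 1045 for ife-2, 7676 for ife-3, 4196 for ife-4 and 25211 for ife-5. Replicate 1 listed a peak at ife-3 only, with 2.09 at rank 6878.

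Of the 10 genes of eIF2, eIF2B and the other factors that bring in the initiator tRNA, 1 (10%) was in the pooled top 1000, against 3.54% of all genes, and 2 (20%) were in the top 3000, against 8.89%. Of the 5 eIF2B subunit genes 4 had a candidate, against 54.2% of all genes, and 1, eif-2Bgamma, was in the top 1000. eif-2Bgamma (WBGene00004090, chromosome II, 6965800 to 6967648, minus strand) had a signal of 12.1 at rank 504, with the summit 813 bp upstream in an intron of C15F1.5 and on the ncRNA gene C15F1.14. Replicate 1 listed it with 5.16 at rank 434 and replicate 2 with 3.38 at rank 18511. The other eIF2B genes with a candidate were eif-2Bdelta at rank 5010, eif-2Bepsilon at 8207 and eif-2Bbeta at 24372, and eif-2Balpha had no peak in any list. Of the eIF2 genes themselves, eif-2gamma ranked 25119 and eif-2beta 26106, and eif-2alpha had no pooled candidate but a peak of 3.63 at rank 16378 in replicate 2.

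eif-2D, whose product can deliver tRNA to the ribosome outside the usual eIF2 route, had a candidate of 9.35 at rank 1359, 94 bp inside the gene, and a peak of 9.29 at rank 901 in replicate 2, 69 bp upstream. Replicate 1 listed no peak there, and eif-2A had no peak in any list. The genes of the start codon factors, eif-1.A and eif-1, ranked 5565 and 14758. eif-6, a factor that keeps the large subunit apart, ranked 19808, and eif-4A3, the helicase of the exon junction complex, had no peak in any list.

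Of the 11 eIF3 subunit genes under the name rule, 8 had a pooled candidate, against 54.2% of all genes. In the top 1000 were 2 of the 11 (against 3.54% of all genes), and in the top 3000 were 3 (against 8.89%). eif-3.E (WBGene00001228, chromosome I, 10640465 to 10642281, minus strand) had a signal of 12.6 at rank 437, 230 bp upstream, between it and the divergent gene B0511.17. eif-3.I (WBGene00001232, chromosome I, 2485861 to 2489787, plus strand) had 11.2 at rank 672, 367 bp upstream and 103 bp from abtm-1, a mitochondrial transporter gene on the opposite strand. Replicate 2 listed eif-3.E with 11.7 at rank 370 and eif-3.I with 12.8 at rank 269, and replicate 1 listed no peak at either. eif-3.C had a signal of 8.55 at rank 1964, 500 bp upstream in the 3′ UTR of sys-1, and neither replicate listed a summit within 100 bp of it. A further candidate of almost the same signal, 8.44 at rank 2055, lay 249 bp upstream. Near that one, replicate 1 listed a peak of 2.06 at rank 7063, 212 bp upstream, and replicate 2 one of 3.62 at rank 16490, 266 bp upstream. The other 5, eif-3.G, eif-3.D, eif-3.B, eif-3.J and eif-3.L, ranked between 7024 and 14194, and eif-3.F, eif-3.H and eif-3.K had no peak in any list.

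**Figure D2:**
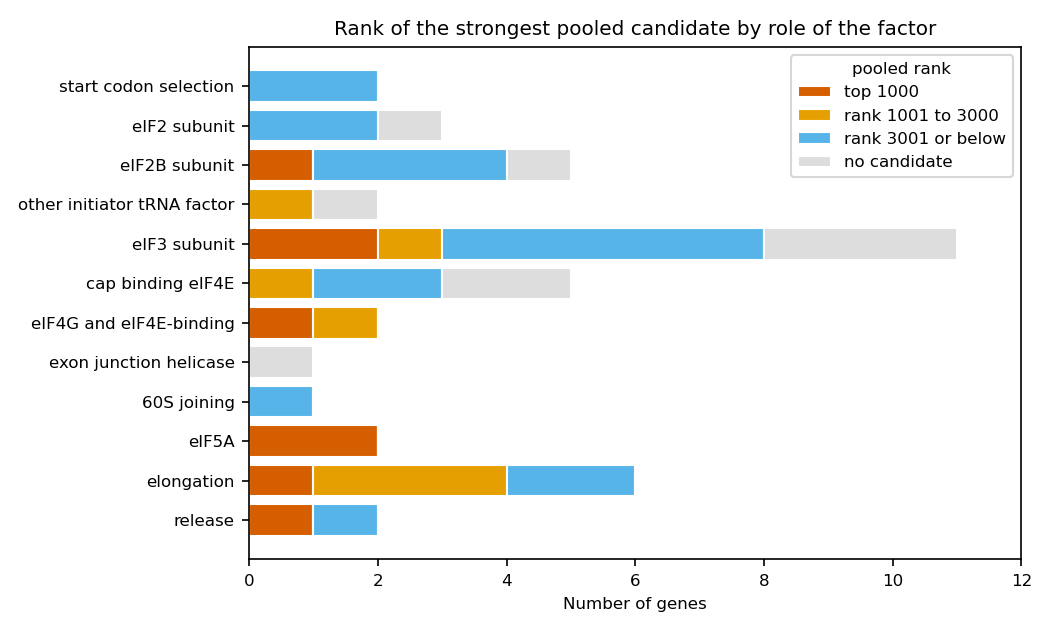
Number of translation factor genes (horizontal axis) in each role (vertical axis), with colours for the rank of the strongest pooled candidate within 1000 bp of a 5′ end. Both eIF5A genes were in the top 1000, and 3 of the 11 eIF3 genes had no candidate.

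The replicates differed in which of these genes they listed. Replicate 1 listed a peak at 17 of the 42 (40.5%), against 18.1% of all genes, and replicate 2 at 28 (66.7%), against 52.5%. For cytosolic ribosomal protein genes the shares were 42.3% in replicate 1 and 87.2% in replicate 2. They were 31.2% and 75.0% for synthetase genes, and 27.1% and 71.4% for mitochondrial ribosomal protein genes. In the top 1000 of each list were 5 genes for replicate 1 (11.9%, against 3.07% of all genes) and 7 for replicate 2 (16.7%, against 3.27%). erfa-3 and ifet-1 were in both, iff-1, eef-1A.1 and eif-2Bgamma in replicate 1 alone, and iff-2, eef-1A.2, eif-3.E, eif-3.I and eif-2D in replicate 2 alone. The 2 ifet-1 peaks had different summits.

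Of the 33 best pooled candidates, 5 had a summit of both replicates within 100 bp, 5 one of replicate 1 alone, 14 one of replicate 2 alone and 9 of neither. No such split over all genes is given here, so these counts do not set the group apart. The longer list of replicate 2, 30000 peaks against 7516, gives more summits to match. In the top 1000 the 8 candidates split into 3 with both, erfa-3, iff-1 and eif-2Bgamma, 1 with replicate 1 alone, ifet-1, and 4 with replicate 2 alone. The 3 with both are 7.14% of the 42 genes, against 1.67% of all genes. At eif-2Bgamma the replicate 2 entry was weak, 3.38 at rank 18511, 86 bp away and with a q-value above 0.05. iff-2 is a final peak that replicate 1 did not list. Replicate 1's list holds only peaks with a q-value below 0.05, while replicate 2's holds weaker ones as well, with 3295 of its 30000 below 0.05. An absent peak in replicate 1 therefore says only that none was listed.

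**Figure D3:**
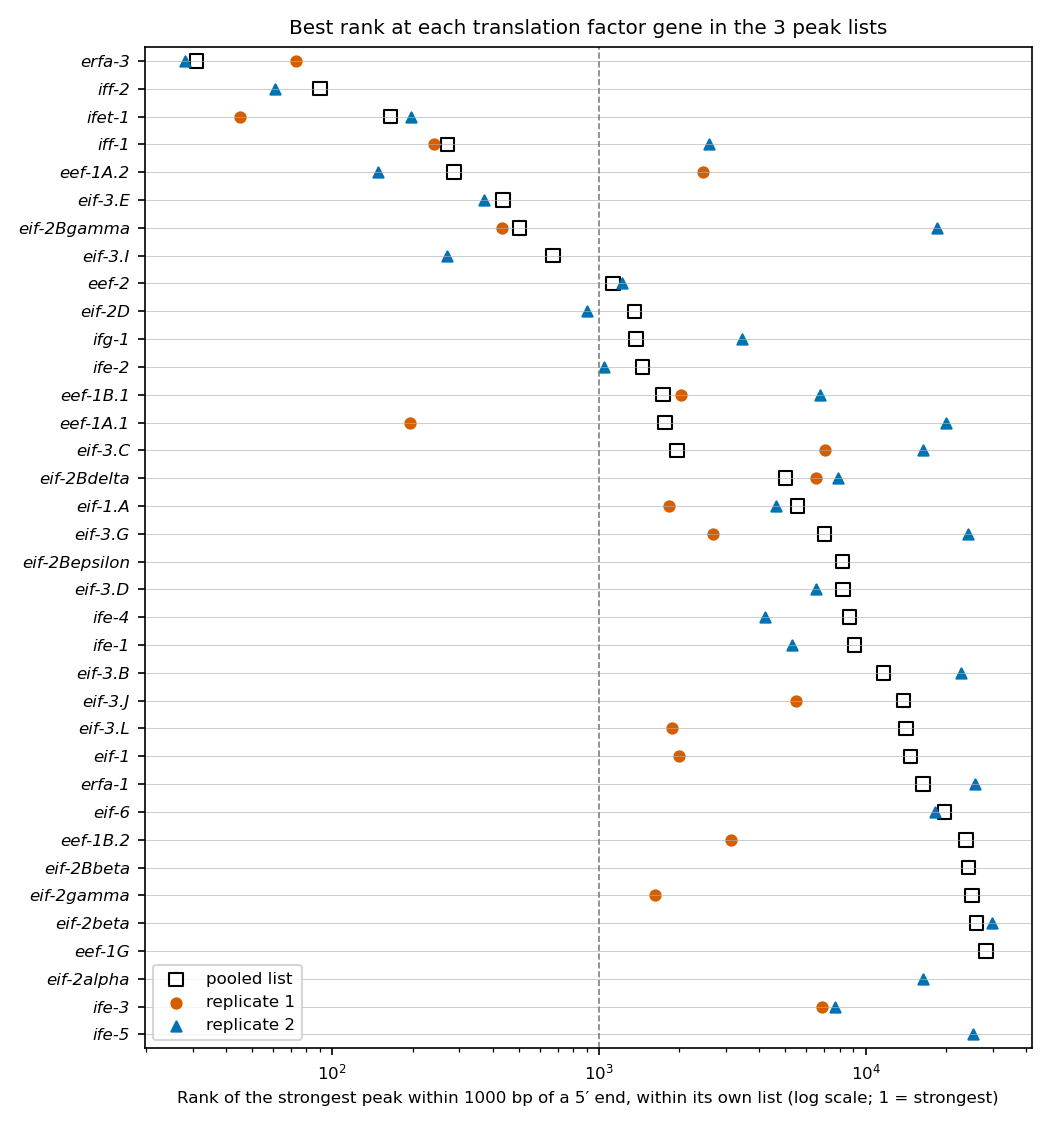
Rank (horizontal axis, log scale, 1 is the strongest) of the best peak within 1000 bp of a 5′ end in the pooled list (squares), replicate 1 (circles) and replicate 2 (triangles), for the 36 translation factor genes with a peak in any list. erfa-3 lay left of rank 100 in all 3 lists, whereas iff-2, eif-3.E and eif-3.I had no point for replicate 1.

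Most best candidates lay upstream of the genes, and many lay beside another gene as well. Of the 33 summits, 25 (75.8%) were upstream of the nearest 5′ end of the translation factor gene, against 53.2% over all genes with a candidate, and 24 (72.7%) were within 500 bp, against 57.8%. The median position was 266 bp upstream, against 46 bp upstream over all genes. The upstream share was 70.0% for cytosolic ribosomal protein genes and 80.0% for the pathway genes outside the name rule, described below. It was lower for synthetase genes, 41.7%, and mitochondrial ribosomal protein genes, 56.4%. Shares within 500 bp were 71.4% for cytosolic ribosomal protein, 66.7% for synthetase and 61.8% for mitochondrial ribosomal protein genes. Upstream placement was therefore not particular to translation factor genes. All 8 translation factor genes in the top 1000 had an upstream summit. By the annotation of protein-coding genes 18 summits were outside any such gene. Of the rest, 7 were in coding exons, 5 in introns, 2 in 3′ UTRs and 1 in a 5′ UTR. For the top 1000 count and for this split, shares over all genes are not given here. These counts therefore do not set the group apart.

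Another gene's 5′ end was within 1000 bp of 20 of the 33 summits (60.6%, against 28.5% over all genes with a candidate) and nearer than the translation factor's own at 11. The own 5′ end was thus the nearest at 22 of 33, against 85.6% of all genes with a candidate, and at 5 of the 8 in the top 1000, against 75.5%. In the top 1000 the nearer neighbours were rps-1 at ifet-1, cdk-1 at iff-1 and abtm-1 at eif-3.I. The summit lay between 2 genes that start in opposite directions at 11 of the 33 (33.3%, against 11.1% over all genes with a candidate). In the top 3000 this held for 8 of the 15 (53.3%), against 19.9% of all genes there. Which gene of such a pair a peak belongs to cannot be told from these lists. When a peak was given only to the gene with the nearest 5′ end, 6 of the 42 were in the top 1000, against 2.71% of all genes.

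A tRNA gene or a snoRNA gene lay within 500 bp of 0 of the 33 summits, against 1.09% and 0.812% of all genes with a candidate. A gene annotated as ncRNA lay within 500 bp of 4 (12.1%, against 8.22% of all genes with a candidate), at ifet-1, eef-1A.2, eif-2Bgamma and eef-1B.1. The first 3 of these were among the 8 in the top 1000, against 19.1% of all genes there. The eef-1A.2 summit was 180 bp from R03G5.8, and the eef-1B.1 summit lay on F54H12.9, 295 bp from the divergent gene aco-2.

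**Figure D4:**
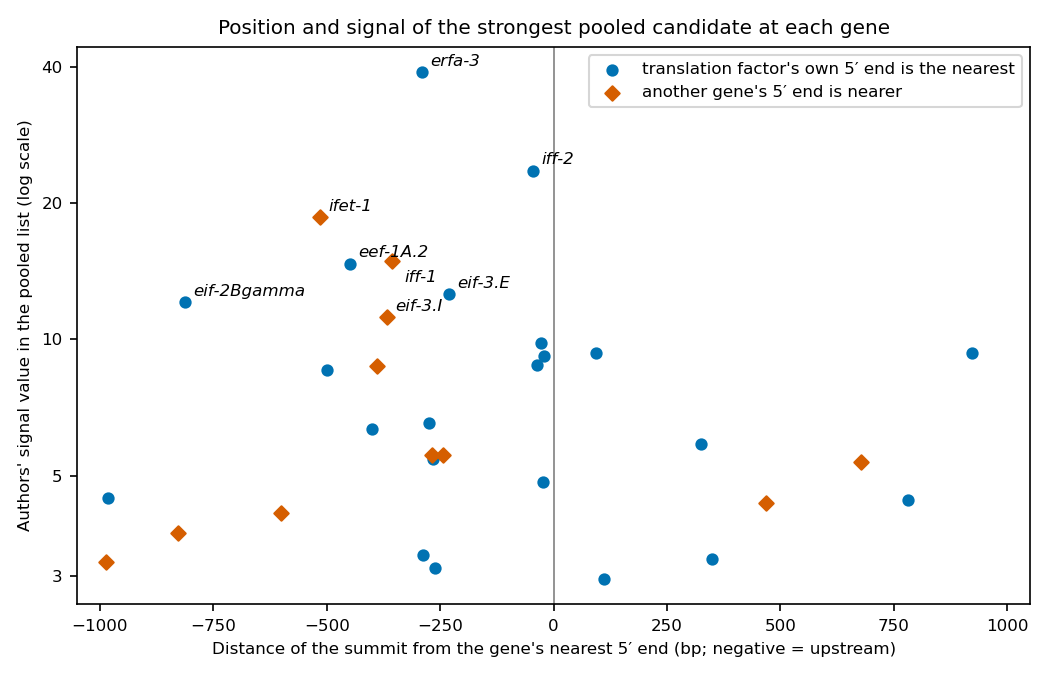
Signal in the pooled list (vertical axis, log scale, authors' value) against the distance of the summit from the nearest 5′ end of the gene (bp, negative is upstream) for the 33 translation factor genes with a pooled candidate. The 8 named genes of the top 1000 all lie left of 0, and diamonds mark the 11 summits that are nearer to another gene.

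Windows reaching 100 bp either way from the summits were searched on both strands. The 8 motifs were AGGTCA and AAGTCA, half-sites of nuclear receptors, TGATAA of GATA factors, the repeat GAGAGA, the TATA-like TATAAA, the E-box CACGTG, the GC-box GGGCGG and TTTCAG, the worm splice acceptor. The half-site AGGTCA was in 2 of the 33 windows (6.06%), against 5.44% of the windows of all genes with a candidate, and AAGTCA in 3 (9.09%), against 9.42%. In the top 3000 they were in 1 and 2 of 15 (6.67% and 13.3%), against 5.69% and 7.71%. The single AGGTCA in the top 3000 was at eif-2Bgamma, and an AAGTCA match there was at eif-2D. TGATAA was in 6 (18.2%, against 16.9%), and in the top 3000 in 4 of 15 (26.7%), against 13.1% of all genes there. CACGTG was in 0, against 4.59%, and in 0 of the 15 in the top 3000, against 4.45%.

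GAGAGA was in 8 windows (24.2%, against 15.6%), and in the top 3000 in 4 of 15 (26.7%), against 26.0% of all genes there. Among those 4 were ifet-1, eef-1A.2 and eef-1A.1, and ifet-1 had it on both strands in the sequence shown above. TTTCAG was in 13 (39.4%, against 33.6%), and in the top 3000 in 7 of 15 (46.7%, against 24.8%). TATAAA was in 2 (6.06%, against 18.0%), and in the top 3000 in 1 of 15 (6.67%, against 12.8%). GGGCGG was in 4 (12.1%, against 4.95%), but in the top 3000 in 1 of 15 (6.67%), below the 11.4% of all genes there. No motif searched was in the iff-1 or eef-2 window, and the only match at iff-2 was a TTTCAG in the 55 bp of 5′ UTR not shown. The median GC content was 41.3% over the 33 windows and 38.3% over all genes with a candidate, and 41.8% and 42.3% in the top 3000. A match is a run of letters and not a measured site.

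Genes of the same pathway outside the name rule were counted from a fixed list, of which 25 of 31 symbols were found. Of these 25, 20 had a pooled candidate (80.0%, against 54.2% of all genes), 4 were in the top 1000 (16.0%, against 3.54%) and 2 had a final peak (8.0%, against 0.681%). larp-1, an RNA-binding protein gene, had 21.3 at rank 117, with 7.0 at rank 124 in replicate 1 and 16.0 at rank 148 in replicate 2. drr-2, the relative of eIF4H, had 21.2 at rank 118, with 4.13 at rank 1065 in replicate 1 and 17.4 at rank 113 in replicate 2. These were the 2 with final peaks. pab-2, a poly(A)-binding protein gene, had 19.9 at rank 143, with 8.36 at rank 78 in replicate 1 and 12.8 at rank 266 in replicate 2. clu-1, a clustered mitochondria homolog, had 15.7 at rank 243, with 11.2 at rank 437 in replicate 2 and no peak in replicate 1.

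Beside the 8 of 42 translation factor genes (19.0%) in the pooled top 1000 stood 15 of 78 cytosolic ribosomal protein genes (19.2%), 2 of 32 aminoacyl-tRNA synthetase genes (6.25%) and 3 of 70 mitochondrial ribosomal protein genes (4.29%). Final peaks lay at 2 translation factor genes, 5 cytosolic ribosomal protein genes, 1 synthetase gene and 0 mitochondrial ribosomal protein genes. The median best rank was 5565 for the translation factor genes, 4710.5 for the cytosolic ribosomal protein genes, 11825 for the synthetase genes and 11264 for the mitochondrial ribosomal protein genes. The peak of ifet-1 is also counted for rps-1. By chromosome, the 42 genes numbered 12 on I, 12 on II, 7 on III, 2 on IV, 6 on V and 3 on X. Those in the top 1000 numbered 2, 2, 2, 0, 1 and 1. Shares of all genes by chromosome are not given here, so no difference between chromosomes is read from these counts.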

How the data were processed

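Per the deposited README files, the authors made a list of peaks and background for each replicate from its alignment against a control alignment, made a pooled list from both alignments and derived the final list from these by an irreproducible discovery rate procedure. For the aligner, peak caller and threshold, names and values were not given in the sources used here. In column 7 the deposited lists hold the authors' signal value per peak, on an unstated scale, and in column 9 the −log10 of the q-value. The ce11 lists were used, and the ce10 lists were not.

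Summits were assigned in Python 3.11.15 (pandas 2.3.3, numpy 2.4.6) to every protein-coding gene with a transcript 5′ end within 1000 bp in Ensembl release 115, and ties in rank took the better rank. Replicate summits within 100 bp counted as the same. The assignment was checked on simulated data. Named genes are those with a final peak, a pooled rank up to 3000 or a rank up to 1000 in either replicate, the eIF5A, eEF1A and eIF4E copies, and pathway genes with a pooled rank up to 1000. Other genes are named to complete a count. The group, lists and motifs were chosen with earlier results of these data known. With 1 group no test was made. The sequence at the erfa-3 summit is not reported here. Figures were drawn with matplotlib 3.10.9. Many worm transcripts are trans-spliced, so an annotated 5′ end can lie downstream of the start of transcription.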

Additional observations from a re-analysis of the deposited data

How the results depend on the processing

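The number of translation factor genes in the pooled top 1000, 8, was 7 within 500 bp (against 2.40% of all genes), 9 within 2000 bp (5.31%), 6 with the nearest gene only (2.71%), 8 with 1 transcript per gene (3.15%) and 6 at a rank cut of 500 (1.97%). At a rank cut of 2000 it was 15, against 6.43% of all genes. With each replicate list alone it ran between 5 and 7, and the number with a peak between 17, without replicate 2, and 28, without replicate 1. The median best rank was 1964 within 500 bp and 3487 with the nearest gene only, against 12394 and 12238 for all genes, and ran between 1989 and 5926 with 1 replicate list, whose lengths differ. Final peaks stayed at 2 under the distance, gene and transcript alternatives. In the 140 strongest peaks there were 2 in replicate 2, erfa-3 and iff-2, and 2 in replicate 1, erfa-3 and ifet-1. The share of all genes at that cut is not given here, so these 2 counts do not set the group apart. Of the 17 named genes with a pooled rank, 9 had no peak without replicate 2 (eef-2, eif-2D, eif-3.E, eif-3.I, ife-1, ife-2, ife-4, iff-2 and ifg-1), 5 had a rank over 1.5 times away and 3 stayed nearer. Without replicate 1, 0 were lost and 11 moved that far. These counts set ranks of different lists against each other, and the replicate 1 list is shorter, 7516 peaks against 30000. A move in rank therefore need not be a change in signal at the gene. With the nearest gene only 4 were lost (eef-1A.1, eif-3.I, ife-1 and iff-1), within 500 bp 3 (eif-2Bgamma, ife-1 and ifg-1) and with 1 transcript per gene 1 (ife-1). No paired analysis was possible because there is 1 group. With 2 replicates of unequal list length and unknown depth, an unlisted peak is not shown to be absent, and control values were not analysed here. Lists without error estimates allow no interval on a rank.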
